A study of Mus musculus with 8 samples.

Results

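Genes of fetal and regenerating gut epithelium were followed in colonic tumors of mice. The set was a list of 9 genes, namely Ly6a, Clu, Anxa1, Anxa3, Il33, Il1rn, Msln, Sprr1a and S100a6. A gene was taken up where a row of the array table carried its symbol and no other, and the brightest such row stood for a gene with several. Of the 9 genes, 8 had a row, 1 each, among 19938 genes with such a row. Ly6a, which encodes the surface protein Sca-1, was not analysed here. Each tumor was measured on 1 expression array, and the values are log2 signals. The K-rasG12D AOM group (3 arrays) consisted of distal colon tumors labelled K-rasG12Dint and induced with the carcinogen azoxymethane (AOM). The LSL AOM group (2 arrays) consisted of AOM-induced distal colon tumors labelled LSL-K-rasG12D/+, which the sample titles call wt. LSL is a lox-stop-lox cassette that keeps the mutant allele silent until a recombinase removes it, and neither the recombinase nor its promoter is named in the labels. The serrated group (3 arrays) consisted of proximal colon tumors labelled K-rasG12Dint and Ink4a/Arf-/-, and their titles do not mention AOM. Serrated and AOM tumors thus differ at once in Ink4a/Arf genotype, colon segment, tumor type and the mention of AOM. Against LSL AOM tumors, and so in part against the AOM mean, the K-ras label differs as well. The parts of these cannot be told apart. Strain, sex and age are not given in the labels, and no normal colon was among the samples.

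After injury, crypts of the mouse gut lose their usual stem cell program for a time and switch on genes that are otherwise typical of the fetal gut. The transcriptional coactivators YAP and TAZ, which act through TEAD factors, are known to drive much of this program, and Clu, Anxa1, Il33 and Msln are commonly used to mark it. Annexins and S100 proteins bind calcium and, in the case of annexins, membranes. Il33 and Il1rn belong to the interleukin-1 family, of which the first is an alarm signal and the second blocks the interleukin-1 receptor.

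Of the arrays, 2 stood apart, both serrated. The signals of serrated replicate 1 were compressed, with an SD of 1.77 over genes where the others had 2.00 to 2.13. That array was the lowest of the 8 arrays for 5 of the 8 genes. For several of the results that rest on it, a fit without it is given as well. On serrated replicate 2 the stratified squamous markers had a mean level of 6.45, against 3.67 to 4.95 on the other arrays. Of 12 epithelial markers, all lay above the array median on every array, with Epcam at 10.08 to 10.45 and Cdh1 at 9.86 to 10.37. The list was not even across groups: its mean was 9.45, 9.54 and 9.50 on the serrated arrays and 8.83 to 9.11 on the AOM arrays. In serrated against AOM tumors 2 of the 12 rose and 0 fell, where 3.62% of all genes rose and 5.76% fell. Cdx2, the intestinal homeobox factor, rose by 2.56 ± 0.27 (log2, limma adjusted p = 0.0013), and Krt20, a keratin of differentiated surface cells, by 2.53 ± 0.49 (0.0162), the latter lost without LSL AOM replicate 1 or serrated replicate 2 (0.0637 to 0.0792). These shifts are as large as that of Sprr1a given further on, and their part in it was not tested. Cdkn2a, the gene of the Ink4a/Arf locus, stood at 5.39, 6.21 and 5.95 in K-rasG12D AOM, 3.59 and 4.28 in LSL AOM, and 4.01, 3.79 and 3.37 in serrated tumors. Serrated and LSL AOM arrays thus overlapped, and where the measured stretch lies relative to the deletion is not known. The labels do not say whether the tumors of a group came from separate animals. The p-values thus measure only the spread between these tumor samples, part of which may be technical. That spread may not be the spread between animals. In tumor tissue, fewer cells of a type and less RNA per cell cannot be told apart.

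The set did not move as a block between serrated and AOM tumors. Sprr1a rose 5.5-fold in serrated tumors against the mean of both AOM groups, Msln fell by 1.24 on the log2 scale, and the other 6 genes did not pass. The test was limma with Benjamini-Hochberg adjustment over all genes and a threshold of 0.05. Of the 8 genes, 1 rose, where 3.62% of all genes did, and 1 fell, where 5.76% did. The median log2 difference of the 8 genes was 0.02, beside 0.04 over all genes. The AOM groups gave a different picture. For 6 of the 8 genes every K-rasG12D array lay above both LSL arrays, where this held for 16.4% of all genes. The margin was narrow for Il1rn, with a lowest K-rasG12D AOM level of 5.81 and a highest LSL AOM level of 5.77. The 8 genes had a median log2 difference of 1.04 there, beside 0.01 over all genes, but none of the 8 passed the adjusted test. No gene of the array did (0% of 19938). At an unadjusted p under 0.05, 4 of the 8 genes were higher and 0 lower, where 4.35% of all genes (868) were higher and 4% (798) lower. For 0 of the 8 genes every K-rasG12D array lay below both LSL arrays, where 15.7% of all genes did so. With array weights estimated gene by gene, an alternative added after the data were seen, Sprr1a passed there (adjusted p = 0.0476). The comparisons share arrays, so their values are given side by side and not as support for each other.

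**Figure D1:**
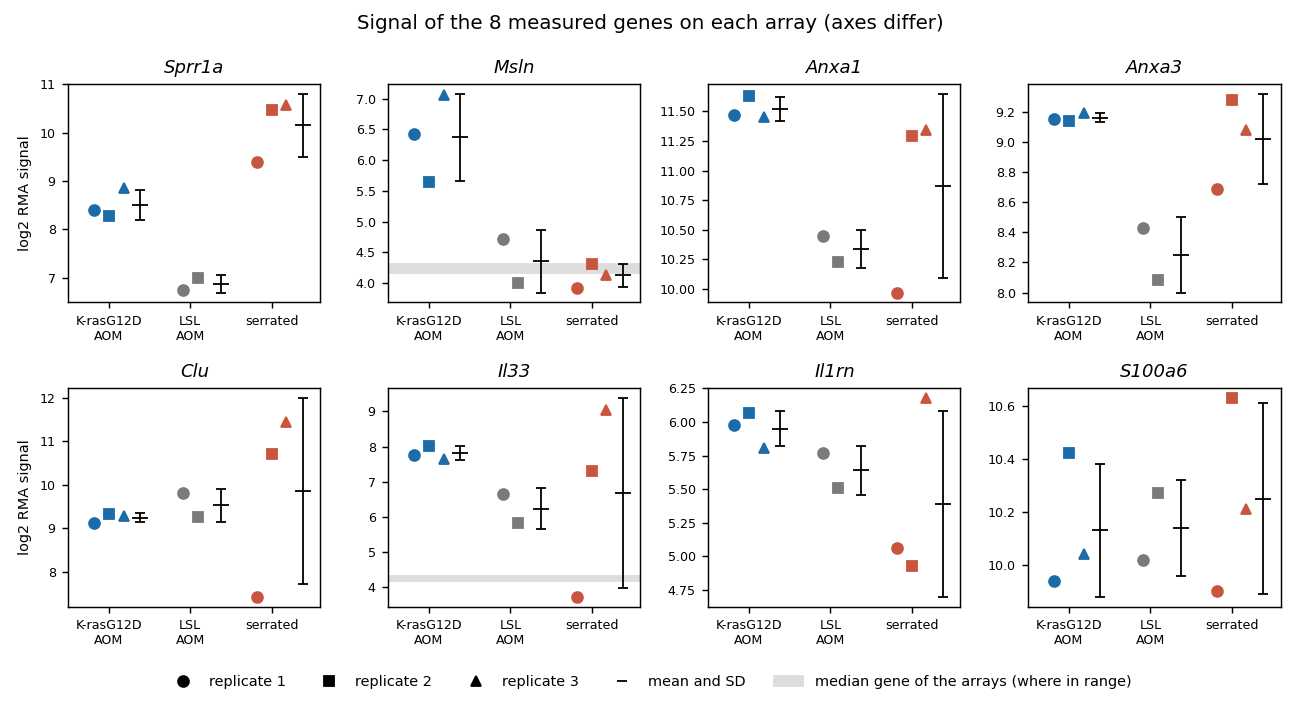
Log2 RMA signal (y axis, scaled per gene) of the 8 measured genes in the 3 tumor groups (x axis), with 1 point per array and the group mean and SD beside the points; the grey band is the range of array medians over all genes, drawn where it falls in range. Sprr1a is highest on all 3 serrated arrays, Msln is highest on all 3 K-rasG12D AOM arrays, and serrated replicate 1 lies far below the other serrated arrays for Clu and Il33.

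Sprr1a encodes a small proline-rich protein, a building block of the cornified envelope of squamous cells that is also induced in injured simple epithelia. Its level was 9.39, 10.48 and 10.58 in serrated, 8.40, 8.27 and 8.86 in K-rasG12D AOM, and 6.75 and 7.0 in LSL AOM tumors. No group overlapped with another, and the order was serrated, then K-rasG12D AOM, then LSL AOM. Means were 10.15 ± 0.66 (SD, n = 3) for serrated, 8.51 ± 0.31 (SD, n = 3) for K-rasG12D AOM and 6.87 ± 0.18 (SD, n = 2) for LSL AOM tumors. In the limma fit Sprr1a rose by 2.46 ± 0.29 (log2 difference ± SE, adjusted p = 0.0018) in serrated tumors against the AOM mean. Against LSL AOM tumors alone it rose by 3.27 ± 0.36 (limma adjusted p = 0.00261), a 9.68-fold difference. Both calls held with each of the 8 arrays left out in turn. Against K-rasG12D AOM tumors alone Sprr1a rose by 1.64 ± 0.32 (limma adjusted p = 0.0209). That last call was lost without K-rasG12D AOM replicate 1 (adjusted p = 0.0736), K-rasG12D AOM replicate 2 (0.0968) or serrated replicate 2 (0.0898). K-rasG12D AOM exceeded LSL AOM tumors by 1.63 ± 0.36 (adjusted p = 0.269), which did not pass.

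The promoters of 4 of the genes are shown, out of the 5 with a promoter entry. Sprr1a is the gene of these that passed a test, Anxa1 is the member of the annexin pair that had an entry, Il1rn is the other gene with an AP-1 match, and S100a6 varied least. AP-1, a Fos and Jun dimer, is a known effector of Ras signalling, and TEAD factors carry YAP and TAZ. Each line is the 250 bases before the RefSeq transcript start, 5′ to 3′ on the gene's strand, from GRCm38.p6. Capitals mark motif matches. For AP-1 the letters searched were TGANTCA, which read the same on both strands. The TEAD motif was searched as GGAATG on both strands. The TATA box was searched on the gene's strand only, as TATAAA. No matches overlapped. The windows are chr3:92485882-92486131 (minus strand) for Sprr1a, chr19:20390672-20390921 (minus strand) for Anxa1, chr2:24336610-24336859 (plus strand) for the first of 3 Il1rn starts, and chr3:90612644-90612893 (plus strand) for S100a6.
Sprr1a: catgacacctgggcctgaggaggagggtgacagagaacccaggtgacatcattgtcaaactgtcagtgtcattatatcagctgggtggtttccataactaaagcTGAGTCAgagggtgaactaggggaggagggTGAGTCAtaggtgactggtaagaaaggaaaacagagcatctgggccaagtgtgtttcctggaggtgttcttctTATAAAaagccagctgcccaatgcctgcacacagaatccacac
Anxa1: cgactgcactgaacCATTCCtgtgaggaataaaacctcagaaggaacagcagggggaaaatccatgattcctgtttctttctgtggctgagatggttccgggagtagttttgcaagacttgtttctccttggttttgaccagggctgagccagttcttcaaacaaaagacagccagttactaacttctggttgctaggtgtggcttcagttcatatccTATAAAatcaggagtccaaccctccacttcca
Il1rn: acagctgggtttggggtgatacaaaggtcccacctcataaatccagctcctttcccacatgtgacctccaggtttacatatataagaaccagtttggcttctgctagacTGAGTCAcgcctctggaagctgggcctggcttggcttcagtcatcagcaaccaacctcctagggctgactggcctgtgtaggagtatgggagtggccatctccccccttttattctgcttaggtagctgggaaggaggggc
S100a6: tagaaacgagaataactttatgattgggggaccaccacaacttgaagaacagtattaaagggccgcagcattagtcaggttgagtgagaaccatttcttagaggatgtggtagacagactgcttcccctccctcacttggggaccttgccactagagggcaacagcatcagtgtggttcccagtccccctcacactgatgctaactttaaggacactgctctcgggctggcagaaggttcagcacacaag
The Sprr1a window held 2 AP-1 matches, starting 146 and 116 bases before the transcript start, and a TATA match starting 43 bases before it. Anxa1 had a TEAD match 236 bases and a TATA match 32 bases before its start, and the printed Il1rn window had an AP-1 match at 141 bases. The S100a6 window had none of the 3 motifs. Of 32851 RefSeq promoter windows of this length, 6.75% held an AP-1 match, 12.6% a TEAD match and 7.59% a TATA match. Both Il33 windows, not printed, held 1 TEAD and 1 TATA match each. Of the Il1rn windows not printed, the third held 1 TEAD match and no AP-1 match, and the second held none of the 3 motifs. A match is a string of letters and not evidence of binding, and no binding was measured. Promoters were found for 5 of the 9 genes.

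Sprr1a is also a squamous gene, so markers of stratified squamous epithelium were set beside it. Of 12 such markers, 0 passed in serrated against AOM tumors with limma, and 0 had an unadjusted p under 0.05, where 9.57% of all genes were higher and 15.2% lower by that rule. Krt14, a basal keratin and the marker with the smallest p, stood at 4.65, 7.20 and 4.88 on the serrated arrays and ran from 5.65 to 7.63 on the AOM arrays, a log2 difference of -1.22 that did not pass (limma adjusted p = 0.258). Krt1 (0.78) and Krt10 (1.14) did not pass either (limma adjusted p = 0.306 and 0.321). Krt5, the keratin partner of Krt14, chosen after its values were seen, stood at 4.33, 8.73 and 2.82 on the serrated arrays and ran from 2.64 to 6.92 on the AOM arrays. Krt4, a keratin of wet squamous surfaces, stood at 3.18, 7.50 and 2.57 on the serrated arrays. Krt5 and Krt4 were highest of all arrays on serrated replicate 2 and low on serrated replicate 3, and Krt14 was highest on K-rasG12D AOM replicate 2. Sprr1a was 10.48 on serrated replicate 2 and 10.58 on serrated replicate 3. Without serrated replicate 2 the Sprr1a difference from the AOM mean was 2.29 (limma adjusted p = 0.0137). The part of squamous cells in the Sprr1a levels was not tested. Among 12 measured small proline-rich and cornified envelope genes of 15 listed, Sprr1a and Ivl rose, Tgm1 fell and 9 did not pass. Of all genes 3.62% rose and 5.76% fell. Ivl, involucrin, rose by 3.27 ± 0.78 (limma adjusted p = 0.0341), with serrated levels of 3.25, 6.67 and 7.30 against 2.24 to 2.79 on the AOM arrays. In K-rasG12D against LSL AOM tumors 6 of the 12 were higher and 0 lower at an unadjusted p under 0.05, and 0 passed. By the unadjusted rule 4.35% of all genes were higher and 4% lower. The 12 include Sprr1a itself and related Sprr genes, so they are not independent of each other. On each LSL AOM array only 3 of the 12 lay above the array median, so folds against these levels are uncertain. Ivl passed in 2 of the 8 fits with an array left out, and the losing fits gave adjusted p of 0.0677 to 0.148. Tgm1, which crosslinks the envelope, fell by 1.40 ± 0.34 (log2, limma adjusted p = 0.0362) and passed in 1 of those 8 fits (otherwise 0.0503 to 0.109).

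**Figure D2:**
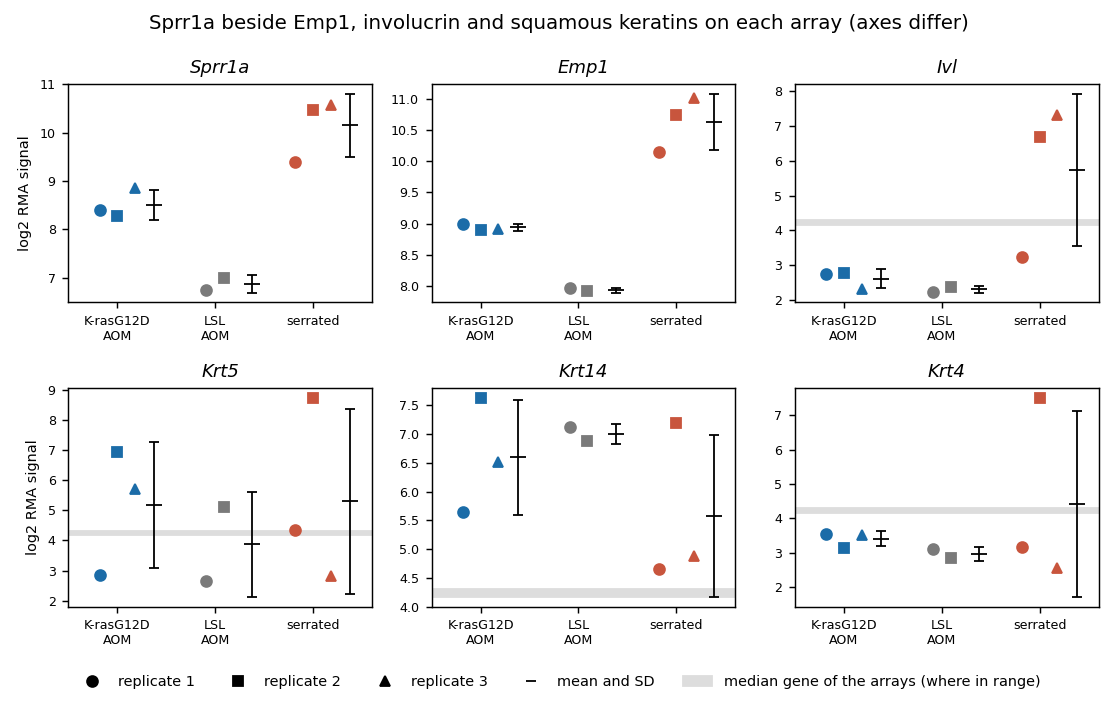
Log2 RMA signal (y axis, scaled per gene) of Sprr1a, the membrane protein gene Emp1, involucrin (Ivl) and the squamous keratins Krt5, Krt14 and Krt4 in the 3 tumor groups (x axis), with 1 point per array, the group mean and SD beside the points, and the range of array medians as a grey band. Krt5 and Krt4 peak on serrated replicate 2 and Krt14 on K-rasG12D AOM replicate 2. Sprr1a stands at 10.48 on serrated replicate 2 and at 10.58 on serrated replicate 3.

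The genes with profiles nearest to Sprr1a over the 8 arrays were Abcg2, a drug efflux pump, and Emp1, an epithelial membrane protein. After centring each gene on its own mean, the root mean square distance to Sprr1a was 0.33 log2 units for Abcg2 and 0.34 for Emp1, where Sprr1a itself varied by 1.33. Emp1 stood at 10.14, 10.73 and 11.01 in serrated, 9.0, 8.90 and 8.92 in K-rasG12D AOM, and 7.97 and 7.92 in LSL AOM tumors, with no overlap between groups. It rose in serrated tumors by 2.19 ± 0.20 against the AOM mean (limma adjusted p = 0.000677), and with each array left out. Emp1 was also 1 of the list of other fetal and regenerative genes described further on.

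Msln encodes mesothelin, a surface glycoprotein of mesothelium that regenerating gut epithelium also makes. Its level was 6.43, 5.64 and 7.05 in K-rasG12D AOM, 4.72 and 4.0 in LSL AOM, and 3.93, 4.32 and 4.14 in serrated tumors. All 3 K-rasG12D AOM arrays lay above the other 5, while LSL AOM and serrated arrays overlapped. Levels near 4 are those of the median gene of an array (4.17 to 4.31), so folds against them are uncertain. Msln fell in serrated against K-rasG12D AOM tumors by 2.24 ± 0.35 on the log2 scale (limma adjusted p = 0.00844), with each of the 8 arrays left out in turn as well. Against LSL AOM tumors its log2 difference was -0.23, with a 95% interval from -1.11 to 0.64 (limma adjusted p = 0.775). The fall against the AOM mean, by 1.24 ± 0.31 (limma adjusted p = 0.0408), averages these unequal groups, and 6 of the 8 fits with an array left out lost it (0.0527 to 0.141). Those 6 left out K-rasG12D AOM replicate 1 or 3, serrated replicate 1 or 2, or either LSL AOM array. Between the AOM groups Msln differed by 2.01 ± 0.39, the smallest unadjusted p of the 8 genes there (0.000588), and did not pass (limma adjusted p = 0.258).

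Of 8 mesothelial markers 0 passed in serrated against AOM tumors with limma. At an unadjusted p under 0.05, 1 was higher, where 9.57% of all genes were, and 0 were lower. That 1 was Upk1b, a uroplakin, which stood at 3.60, 5.42 and 7.53 on the serrated arrays against 2.91 to 3.37 on the AOM arrays, without overlap. Its log2 difference of 2.35 ± 0.70 (limma adjusted p = 0.0724) was opposite in sign to that of Msln. With serrated replicate 1 left out, 1 of the 8 markers rose and 0 fell against the AOM mean. In that fit 6.09% of all genes rose and 4.39% fell. There 1 also rose against K-rasG12D AOM tumors, where 4.94% of all genes did, and 1 against LSL AOM tumors, where 5.33% did. The mean of the 8 markers was 4.42 to 4.64 on the serrated and 4.02 to 4.23 on the AOM arrays. That mean includes Upk1b and also Krt19, 1 of the epithelial markers too, at 11.17 to 11.88. Of the 8 markers, 1 lay above the median gene on each AOM array and 2 on each serrated array. Their median log2 difference was 0.17, beside 0.04 over all genes. Upk3b, which defines mesothelium, ran from 2.93 to 3.65 and Lrrn4 from 2.40 to 3.00 over all 8 arrays, below the median gene of every array. The genes with profiles nearest to that of Msln were Casp12 at 0.39 log2 units and Ifi202b at 0.46, where Msln itself varied by 1.12. Casp12, a caspase, ran from 5.47 to 5.95 in K-rasG12D AOM tumors and from 3.14 to 3.75 on the other 5 arrays.

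Anxa1 and Anxa3, annexins A1 and A3, had the most similar profiles of any pair in the set, 0.34 log2 units apart. Anxa1, which dampens inflammation, stood at 11.47, 11.63 and 11.45 in K-rasG12D AOM, 10.45 and 10.23 in LSL AOM, and 9.97, 11.29 and 11.34 in serrated tumors. Anxa3 stood at 9.15, 9.14 and 9.19 in K-rasG12D AOM, 8.43 and 8.08 in LSL AOM, and 8.69, 9.28 and 9.08 in serrated tumors. Both were low in LSL AOM tumors, and serrated replicates 2 and 3 lay near the K-rasG12D AOM arrays. Serrated replicate 1 fell below the LSL AOM arrays for Anxa1 and just above them for Anxa3. Neither gene passed in any comparison over all 8 arrays. Between the AOM groups the log2 difference was 1.18 ± 0.38 for Anxa1 (limma adjusted p = 0.412, unadjusted 0.0127). For Anxa3 it was 0.91 ± 0.22 (limma adjusted p = 0.283, unadjusted 0.00251).

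Against LSL AOM tumors the serrated group differed by 0.53 ± 0.38 for Anxa1 (limma adjusted p = 0.487) and by 0.76 ± 0.22 for Anxa3 (0.0812). Anxa3 passed when the arrays were quantile normalized again (0.90, limma adjusted p = 0.0265). Without serrated replicate 1 both passed, with 0.98 ± 0.17 for Anxa1 (limma adjusted p = 0.0116) and 0.93 ± 0.18 for Anxa3 (0.019). Against K-rasG12D AOM tumors the log2 difference of Anxa3 was -0.14, with a 95% interval from -0.58 to 0.30. Macrophages and neutrophils also express annexins. The mean level of 12 macrophage and dendritic cell markers was 4.66, 4.67 and 5.36 on the serrated arrays, 5.66 to 6.16 in K-rasG12D AOM and 6.13 and 5.59 in LSL AOM tumors, and 6 of the 12 fell in serrated tumors, where 5.76% of all genes did. The 12 neutrophil markers had means of 4.08 to 4.82 in K-rasG12D AOM, 3.73 and 3.92 in LSL AOM, and 3.45 to 3.71 in serrated tumors. Their part in the annexin levels was not tested. The nearest profiles were Fer, a tyrosine kinase, for Anxa3 (0.11 log2 units, where Anxa3 varied by 0.41) and 4930453N24Rik and Mospd1 for Anxa1 (0.16 each, where Anxa1 varied by 0.61).

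Among all 12 annexins, Anxa10 rose, Anxa6 fell and 10 did not pass in serrated against AOM tumors, where 3.62% of all genes rose and 5.76% fell. Anxa10, an annexin of the stomach lining, stood at 6.25, 10.86 and 10.60 in serrated, 4.20, 6.43 and 3.81 in K-rasG12D AOM, and 2.16 and 2.50 in LSL AOM tumors. K-rasG12D AOM replicate 2 and serrated replicate 1 overlapped. Anxa10 rose by 5.67 ± 1.04 (limma adjusted p = 0.013), a call lost without LSL AOM replicate 1 or serrated replicate 2 (0.0537 to 0.0663). Against K-rasG12D AOM tumors alone it did not pass. Its levels on both LSL AOM arrays and on K-rasG12D AOM replicates 1 and 3 lay below the median gene of those arrays. Folds against these levels are uncertain. Anxa6 fell by 1.93 ± 0.23 (limma adjusted p = 0.00201), with each array left out as well.

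**Figure D3:**
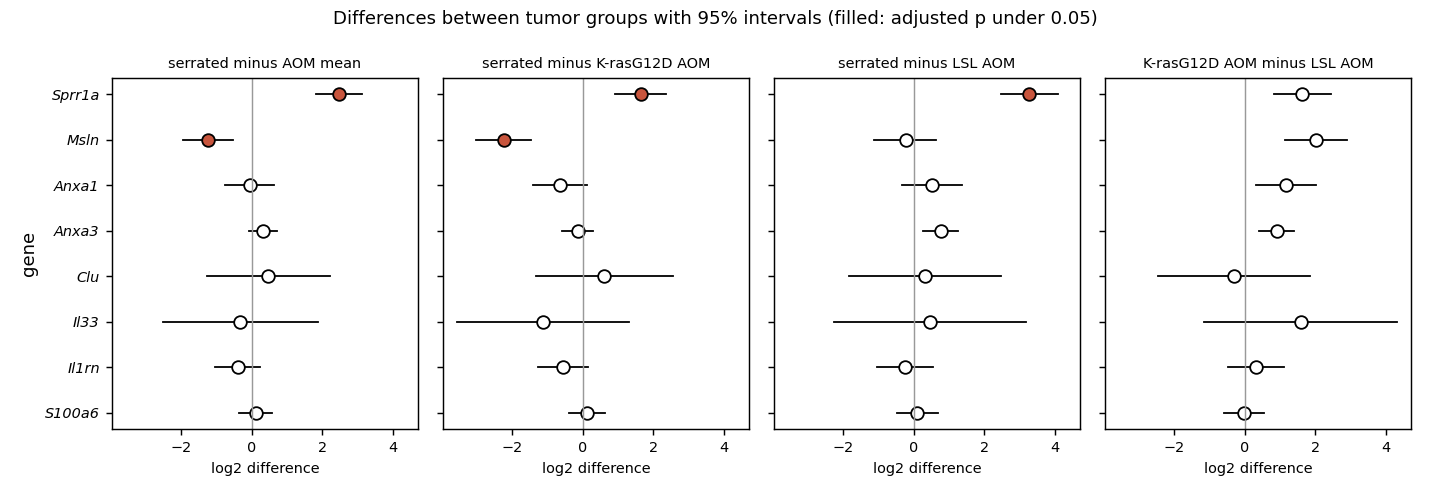
Log2 difference (x axis) of each of the 8 genes (y axis) in the 4 comparisons, with the 95% interval from limma as a line; filled points passed an adjusted p of 0.05. Sprr1a is filled in all 3 comparisons with serrated tumors, Msln in 2 of them, and no gene is filled between the AOM groups although 4 intervals there lie wholly above 0.

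Il33 and Clu varied more within the serrated group than between groups. Il33 stood at 3.73, 7.31 and 9.03 in serrated, 7.75, 8.03 and 7.65 in K-rasG12D AOM, and 6.64 and 5.82 in LSL AOM tumors. On serrated replicate 1 it lay below the median gene of that array, and on serrated replicate 3 it was the highest of all arrays. Its SD in the serrated group was 2.70, where the median gene had 0.32. The log2 difference from the AOM mean was -0.33, with a 95% interval from -2.52 to 1.86, and did not pass (limma adjusted p = 0.856). Without serrated replicate 1 it was 1.15 ± 0.43 (limma adjusted p = 0.148), and without serrated replicate 3 it was -1.5 ± 0.77 (0.196). Between the AOM groups Il33 differed by 1.58 ± 1.20 (limma adjusted p = 0.868), with no overlap of the arrays. The nearest profile was that of Avil at 0.71 log2 units, the most distant nearest neighbour of any of the 8 genes, where Il33 itself varied by 1.52.

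Fibroblasts and endothelium also make Il33. The mean of 10 endothelial markers was 4.62, 4.42 and 5.22 on the serrated arrays, 4.83 to 5.13 in K-rasG12D AOM and 4.80 and 4.41 in LSL AOM tumors. That of 12 fibroblast markers was 5.96, 5.78 and 6.63 on the serrated arrays, 6.65 to 7.15 in K-rasG12D AOM and 7.30 and 6.44 in LSL AOM tumors. Within the serrated group both lists and Il33 were highest on replicate 3. On replicate 1, whose signals were compressed, both lists were slightly higher and Il33 was lower than on replicate 2. The part of these cells in the Il33 levels was not tested.

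Clu encodes clusterin, a secreted chaperone that marks revival stem cells of the injured intestine. It stood at 7.42, 10.71 and 11.44 in serrated, 9.11, 9.33 and 9.29 in K-rasG12D AOM, and 9.80 and 9.26 in LSL AOM tumors. Serrated replicates 2 and 3 lay above and replicate 1 below all 5 AOM arrays. Over all arrays the log2 difference from the AOM mean was 0.47 ± 0.77 (limma adjusted p = 0.733). Without serrated replicate 1 it was 1.69 ± 0.23 (limma adjusted p = 0.00387), and it passed then against K-rasG12D AOM (1.83 ± 0.25, 0.00493) and LSL AOM tumors (1.54 ± 0.28, 0.014) too. Those fits rest on 2 serrated arrays. Without serrated replicate 3 the sign turned, to -0.32. In the AOM groups it was even, with a log2 difference of -0.29 ± 0.95 between them (limma adjusted p = 0.999). The nearest profile was that of Qsox1, a secreted oxidase, at 0.38 log2 units, where Clu varied by 1.11.

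**Figure D4:**
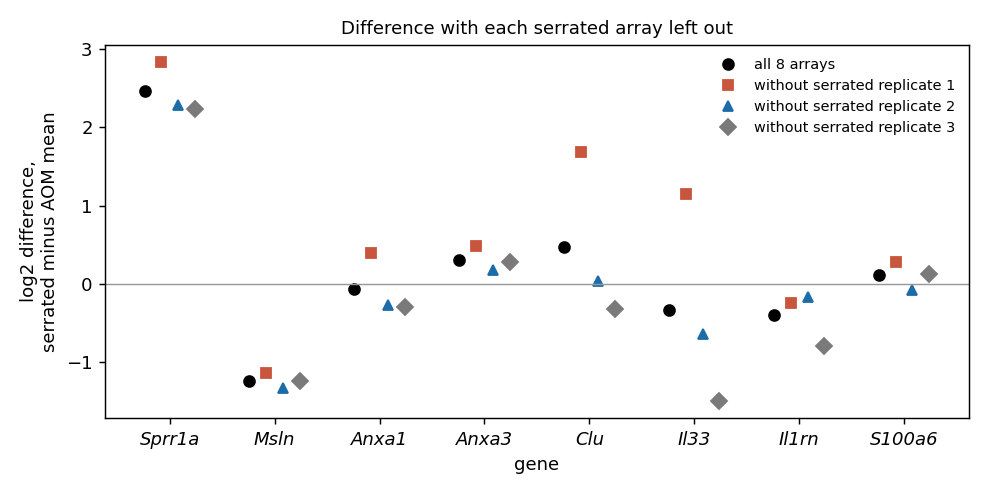
Log2 difference between serrated tumors and the AOM mean (y axis) for each of the 8 genes (x axis), over all 8 arrays and with each serrated array left out. Sprr1a stays above and Msln below 0 throughout, whereas Clu moves from 0.47 to 1.69 and Il33 from -0.33 to 1.15 when serrated replicate 1 is left out.

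Il1rn encodes the interleukin-1 receptor antagonist. Its level was 5.06, 4.93 and 6.18 in serrated, 5.98, 6.07 and 5.81 in K-rasG12D AOM, and 5.77 and 5.51 in LSL AOM tumors. Serrated replicates 1 and 2 lay below and replicate 3 above all AOM arrays. The log2 difference from the AOM mean was -0.40 ± 0.28 (limma adjusted p = 0.406), and without serrated replicate 3 it was -0.80 ± 0.16 (0.0133). Without serrated replicate 1 the difference was -0.24 (limma adjusted p = 0.739). The nearest profiles were those of Trip13, a spindle checkpoint gene, at 0.05 log2 units and Nmt2, a myristoyltransferase, at 0.09, where Il1rn varied by 0.43.

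Of 14 listed ligands, receptors and partners of these proteins 10 were measured, and 0 of them passed in serrated against AOM tumors. At an unadjusted p under 0.05 in limma, 3 were lower and 0 higher, where 15.2% of all genes were lower and 9.57% higher. Il1b, the agonist that Il1rn counteracts, stood at 3.40, 4.27 and 5.66 in serrated, 5.18, 6.39 and 6.54 in K-rasG12D AOM, and 5.35 and 6.75 in LSL AOM tumors, and its difference of -1.60 ± 0.55 from the AOM mean did not pass (limma adjusted p = 0.107). Il1rap, the shared accessory chain of the interleukin-1 and Il33 receptors, stood at 3.69, 3.38 and 4.07 in serrated tumors against 4.22 to 5.46 on the AOM arrays. Its difference of -1.04 ± 0.29 did not pass (limma adjusted p = 0.0561). The decoy receptor Il1r2 (-0.69) and the pattern receptor Tlr2 (-0.40) did not pass either (limma adjusted p = 0.166 and 0.232).

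S100a6, calcyclin, varied least in the set, by 0.24 log2 units (root mean square) over the 8 arrays. Its level was 9.90, 10.63 and 10.21 in serrated, 9.94, 10.42 and 10.04 in K-rasG12D AOM, and 10.02 and 10.27 in LSL AOM tumors, and all groups overlapped. The log2 difference from the AOM mean was 0.11 with a 95% interval from -0.35 to 0.57 (limma adjusted p = 0.767). For K-rasG12D against LSL AOM tumors it was -0.01, with an interval from -0.58 to 0.56. A change of 2-fold in either direction, 1 log2 unit, thus lay outside both intervals. Of 14 S100 genes, S100a13 rose by 0.59 ± 0.14 (limma adjusted p = 0.0362), S100a16 fell by 0.62 ± 0.14 (0.0294) and 12 did not pass. Against the AOM mean 3.62% of all genes rose and 5.76% fell. The S100a13 and S100a16 calls each held in 2 of the 8 fits with an array left out, and were otherwise at 0.0504 to 0.154.

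Of 13 listed genes of the Ly6 family, to which Ly6a belongs, 10 had a row of their own. In serrated against AOM tumors Slurp1 and Ly6g6c rose, Ly6e fell and 7 did not pass, where 3.62% of all genes rose and 5.76% fell. Ly6e, a widely expressed member, fell by 2.01 ± 0.25 (limma adjusted p = 0.0024), from a range of 10.54 to 11.03 on the AOM arrays to 8.24, 8.71 and 9.45, and with each array left out. Slurp1, a secreted member, rose by 1.29 ± 0.25 (0.0155) and was lost without either LSL AOM array or serrated replicate 2 (0.0515 to 0.0674). Ly6g6c rose by 1.78 ± 0.47 (0.049) and passed in 1 of 8 fits with an array left out (otherwise 0.0697 to 0.18). Ly6g stood at 9.76, 9.62 and 10.26 in K-rasG12D AOM and 7.81 and 8.37 in LSL AOM tumors, and at 8.11, 6.90 and 8.84 in serrated tumors. It did not pass against the AOM mean (-1.04, 0.145) and fell by 1.93 ± 0.44 against K-rasG12D AOM tumors (limma adjusted p = 0.0368), a call kept in 1 of 8 fits with an array left out (otherwise 0.0509 to 0.111). Ly6d, chosen after its values were seen, stood at 8.62, 8.86 and 8.42 in K-rasG12D AOM, 5.88 and 6.84 in LSL AOM, and 7.27, 9.47 and 9.56 in serrated tumors. It did not pass in any comparison over all 8 arrays. With serrated replicate 1 left out, 3 of the 10 Ly6 genes rose and 1 fell against the AOM mean, where 6.09% of all genes rose and 4.39% fell. Against LSL AOM tumors 3 rose and 1 fell in that fit, where 5.33% of all genes rose and 3.63% fell. Ly6 genes have close copies on the same chromosome, so their signals are uncertain as to the copy.

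Other genes known from fetal or regenerating gut, 24 listed and 19 measured, also split. In serrated against AOM tumors Emp1 and Anxa10 rose, Cldn4 and Basp1 fell and 15 did not pass, with a median log2 difference of -0.38. Of all genes 3.62% rose and 5.76% fell, with a median of 0.04. Cldn4, a tight junction claudin, fell by 1.27 ± 0.22 (limma adjusted p = 0.00967), from 9.62 to 10.47 on the AOM arrays to 9.06, 9.16 and 8.43. Basp1, a membrane-bound protein, fell by 0.97 ± 0.23 (0.0341) and passed in 2 of the 8 fits with an array left out (otherwise 0.0648 to 0.122). Without serrated replicate 1, 4 of the 19 rose and 3 fell, where 6.09% of all genes rose and 4.39% fell in that fit. Without serrated replicate 3, 2 rose and 7 fell, where 5.91% of all genes rose and 13.5% fell. Between the AOM groups 0 of the 19 passed with limma, 12 had all K-rasG12D arrays above both LSL arrays and 3 had them below, beside 16.4% and 15.7% of all genes. At an unadjusted p under 0.05, 4 were higher and 1 lower, beside 4.35% and 4% of all genes. The list's median there was 0.41, beside 0.01 over all genes.

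YAP and TAZ targets, 22 listed and all measured, were lower rather than higher in serrated tumors where they passed, with 5 falling, 1 rising and 16 not passing, where 5.76% of all genes fell and 3.62% rose. Their median log2 difference was -0.53, beside 0.04 over all genes. Ajuba, a LIM protein that restrains the LATS kinases, fell by 1.99 ± 0.21 (limma adjusted p = 0.00116), from 4.94 to 5.78 on the AOM arrays to 3.39, 3.59 and 3.40. Rbms3, an RNA-binding protein, fell by 1.91 ± 0.20 (0.00122) and the stress gene Gadd45b by 1.27 ± 0.18 (0.00463). On the serrated arrays Ajuba lay below the median gene, and Rbms3 (4.06, 3.68 and 4.28) lay near or below it. The folds of Ajuba and Rbms3 are thus uncertain. Asap1, a GTPase-activating protein of Arf, was the gene that rose, by 1.43 ± 0.20 (0.00454). All 4 kept their calls with each array left out. The list's median between the AOM groups was 0.33, beside 0.01 over all genes, and 0 of the 22 passed there with limma. At an unadjusted p under 0.05, 4 were higher and 0 lower there, where 4.35% of all genes were higher and 4% lower. Several of these targets are also made by fibroblasts, whose 12 markers had 3 members falling and 0 rising in serrated tumors, and their part in the result was not tested.

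Across arrays the 8 genes, each centred on its own mean, averaged 0.28, 0.32 and 0.42 log2 units on the K-rasG12D AOM arrays and -0.43 and -0.73 on the LSL AOM arrays. On the serrated arrays the averages were -0.99, 0.37 and 0.75. The K-rasG12D AOM arrays were thus alike, the LSL AOM arrays were both low, and the serrated group held both the lowest and the highest array. Without serrated replicate 1, 2 of the 8 genes rose and 0 fell against the AOM mean, where 6.09% of all genes rose and 4.39% fell in that fit. Against LSL AOM tumors 4 rose in that fit, namely Clu, Anxa1, Anxa3 and Sprr1a, where 5.33% of all genes did. With all 3 serrated arrays, 1 gene rose against LSL AOM tumors, where 2.31% of all genes did, and 0 fell, where 3.4% did. Against K-rasG12D AOM tumors 1 rose and 1 fell over all arrays, where 2.46% of all genes rose and 3.99% fell.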

How the data were processed

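RNA from 8 colonic tumors was measured on Affymetrix arrays, 1 per tumor. The deposited values are log2 signals. RMA (robust multi-array average) and GCOS are listed as tools in the submitters' processing notes, without versions. The table had 35557 rows, of which 21789 carried 1 gene symbol, 1621 several and 12147 none, and only the first were used. Symbols came from the platform annotation and were checked by gene ID against RefSeq (GRCm38.p6), with 0 changed.

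Each gene's row with the highest mean was fitted with limma 3.58.1 (R 4.3.3) as 3 group means over 8 arrays, with 5 residual degrees of freedom and 1 spread per gene shared by the groups. Where serrated arrays vary more, errors of serrated contrasts are too small and those between AOM groups too large. P-values were adjusted over all 19938 genes (Benjamini-Hochberg). The small number of arrays limits the precision. The fit was tested on simulated data. Members and gene lists were chosen with earlier results of these data known.

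The naming rule took all 9 list members, Cdkn2a, up to 4 genes of each other list with the smallest adjusted p in serrated against AOM tumors, and the 2 genes nearest in centred profile to each member; the text prints part of these. Epcam, Cdh1, Krt5, Ly6d and S100a9 fall outside the rule and were chosen after their values were seen. Krt19 and S100a5 were added to show limits of their lists. Alternatives were another normalization, median centring, other models of the spread, a filter on dim genes, the mean of rows, fits of 2 groups and leaving out each array.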

Additional observations from a re-analysis of the deposited data

How the results depend on the processing

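No paired analysis was possible because the labels give the samples no replicate numbers that the groups share. The 8 genes gave 2 calls in serrated against AOM tumors over all arrays. Quantile normalization again, median centring and group variance weights each gave 1, since Msln was lost (adjusted p = 0.0518, 0.0565 and 0.153). Array weights gave 7 calls and gene-by-gene array weights 5. Against K-rasG12D AOM tumors (2 calls) these weights gave 5 and 4. Against LSL AOM tumors (1 call) they gave 4 and 3, and quantile normalization again gave 2. Between the AOM groups (0 calls) they gave 2 and 1. The array weights did not converge and put a weight of 25.62 on serrated replicate 2. They called 10334, 9962, 6356 and 123 of all genes in these 4 comparisons, where the fit without weights called 1871, 1286, 1138 and 0. Gene-by-gene weights called 5759, 5677, 3670 and 58. Group variance weights called 1028 genes against the AOM mean and 13 between the AOM groups, and fits of the compared groups alone called 332 against LSL AOM tumors and 4 between the AOM groups. With 1 array left out, the counts over all genes ran from 643 to 3874, 390 to 3186, 176 to 2530 and 0 to 4. Leaving out 1 array gave 1 to 3 calls against the AOM mean, 1 to 3 against K-rasG12D AOM, 1 to 4 against LSL AOM tumors, and 0 between the AOM groups.

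Signs turned for differences that passed no test over all arrays. With quantile normalization again, the log2 difference became 0.08 for Anxa1 against the AOM mean, 0.02 for Anxa3 against K-rasG12D AOM tumors and 0.02 for S100a6 between the AOM groups. With array weights and gene-by-gene array weights it became 0.36 and 0.29 for Anxa1 and 0.29 and 0.24 for Il33 against the AOM mean, and 0.12 and 0.06 for Anxa3 against K-rasG12D AOM tumors. Leaving out 1 array, the differences from the AOM mean ran from -0.32 to 1.69 for Clu, -0.30 to 0.39 for Anxa1, -1.5 to 1.15 for Il33 and -0.08 to 0.28 for S100a6. Those from K-rasG12D AOM tumors ran from -0.18 to 1.83 for Clu, -0.27 to 0.02 for Anxa3, -2.29 to 0.36 for Il33 and -0.08 to 0.29 for S100a6. Those from LSL AOM tumors ran from -0.47 to 1.54 for Clu, -0.71 to 1.94 for Il33, -0.59 to 0.13 for Msln and -0.09 to 0.28 for S100a6. S100a6 between the AOM groups ran from -0.15 to 0.11. Where values moved with a setting other than a left-out array, the cause was not tested. Signal near the array median limits Msln, and Il33 on serrated replicate 1.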

Other observations

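The calprotectin genes S100a8 and S100a9, S100 family members like S100a6, had lower means in serrated and LSL AOM than in K-rasG12D AOM tumors. Msln had the same order. Not all 12 neutrophil markers, of which these are 2, did so. In serrated against K-rasG12D AOM tumors 3 of the 12 fell with limma, where 3.99% of all genes did, and 3 had a higher mean. Those that fell were S100a8 itself, Ly6g, whose signal is uncertain as to the copy, and Mmp9. Mmp9 had a higher mean in LSL AOM (7.23) than in K-rasG12D AOM tumors (6.02). S100a8 stood at 4.68, 5.92 and 5.70 in K-rasG12D AOM, 2.97 and 3.94 in LSL AOM, and 3.64, 3.44 and 2.84 in serrated tumors. Its LSL AOM and serrated levels lay below the median gene of their arrays, so folds against them are uncertain. S100a8 fell in serrated against K-rasG12D AOM tumors by 2.13 ± 0.38 on the log2 scale (limma adjusted p = 0.0151). That call was lost without K-rasG12D AOM replicate 2 or 3 or serrated replicate 2 (0.0542 to 0.0724). The difference of 1.97 ± 0.43 between the AOM groups did not pass (limma adjusted p = 0.269). S100a9, chosen after its values were seen, differed by 2.23 ± 0.69 between the AOM groups (limma adjusted p = 0.392). Its level was 4.66, 7.23 and 6.74 in K-rasG12D AOM, 3.31 and 4.65 in LSL AOM, and 4.36, 3.92 and 3.73 in serrated tumors. Of the 14 S100 genes, 9 had all K-rasG12D AOM arrays above both LSL AOM arrays and 0 had them below, beside 16.4% and 15.7% of all genes. Some of these margins were small. The lowest K-rasG12D AOM and the highest LSL AOM levels were 4.66 and 4.65 for S100a9 and 5.09 and 5.01 for S100a13. For S100a16 they were 8.49 and 8.40. For S100a5 they were 3.24 and 3.21, below the median gene of every array.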
